A study of Mus musculus with 10 samples.

Results

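RNA polymerases I, II and III are built from subunits whose genes are scattered over the genome, and 32 of the 55573 genes in the deposited table carry names of such subunits or of the mitochondrial RNA polymerase. The members were chosen by symbol alone: every gene named Polr1, Polr2 or Polr3 followed by lower-case letters, with Polrmt, Twistnb, Cd3eap and Znrd1. They comprise 6 subunits found in polymerase I alone, 7 in polymerase II alone, 10 in polymerase III alone, 2 shared by polymerases I and III, 5 shared by all 3 enzymes, the polymerase II-associated gene Polr2m, and Polrmt. All 32 had enough counts to be tested.

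The RNA came from cortices of mouse pups on postnatal day 3, from which cells with yellow fluorescence had been sorted, with 1 preparation per pup. In the 5 Cdk7_KO libraries the genotype was NexCre/+ with Cdk7lox/lox and R26EYFP/+, and in the 5 Ctrl libraries it was NexCre/+ with Cdk7+/+ and R26EYFP/+. All pups thus carried 1 NexCre allele, which puts Cre recombinase into the Neurod6 locus of young glutamatergic neurons of the dorsal forebrain, and 1 allele of the EYFP reporter. The deletion and the fluorescence are limited to cells with a history of Cre, and Ctrl pups had no floxed Cdk7 allele. The comparison asks how the RNA of neurons differs without CDK7, the kinase of the general transcription factor TFIIH.

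RNA polymerase I makes the large ribosomal RNA precursor, and polymerase II makes messenger RNA and most small nuclear RNA. Polymerase III makes transfer RNA, the shortest ribosomal RNA and other short transcripts. Each enzyme has a pair of large catalytic subunits, an assembly platform, a stalk, and a set of small subunits common to all of them. The largest subunit of polymerase II, encoded by Polr2a, has a tail of heptad repeats that CDK7 phosphorylates as transcription begins. The subunit genes of all these enzymes are themselves transcribed by polymerase II.

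Total counts lay between 23497621 and 31233466 per library. Cdk7 was at 3.63 to 7.07 CPM (counts scaled to a common library total) in Cdk7_KO and at 10.1 to 20.3 CPM in Ctrl, with no overlap (log2 fold change -1.54, SE 0.22). Its adjusted p was 0.161 in edgeR, 0.00828 in edgeR with sex as a factor and 2.26e-08 in DESeq2. Levels in CPM are scaled by library totals, and log2 fold changes with TMM scaling, so their signs can differ where a difference is near 0. The counts of Xist against a Y-linked gene marked 3 Cdk7_KO and 2 Ctrl libraries as male and 2 Cdk7_KO and 3 Ctrl libraries as female. The male ones bear the numbers 1 to 3 and the female ones 4 to 6. Sex thus cannot be told apart from anything else that goes with these numbers, and the labels name no sets of preparations. Markers of projection neurons were present in every library, with a sum over 7 genes of 1605 to 2212 CPM in Cdk7_KO and 1359 to 2010 CPM in Ctrl. All 7 had log2 fold changes above 0 (median 0.32). In edgeR 3 of them were higher at an unadjusted p under 0.05, against 4.90% of all genes. Markers of other cells summed to less in most Cdk7_KO libraries than in Ctrl. The 9 radial glia markers summed to 214.1 to 833.6 CPM in Cdk7_KO and 774 to 1304 CPM in Ctrl, the 7 proliferation markers to 144 to 231 CPM in Cdk7_KO and 218 to 299 CPM in Ctrl, and the 7 endothelial and pericyte markers to 45.6 to 252.1 CPM in Cdk7_KO and 179.9 to 1125 CPM in Ctrl. All 9, 7 and 7 had negative log2 fold changes and none was at 0 in all libraries. In edgeR 9, 6 and 7 of them were lower at an unadjusted p under 0.05, against 10.5% of all genes. Of the 7 markers each of astrocytes, microglia, the oligodendrocyte lineage and interneurons, 6, 5, 5 and 1 were lower at that p. The part of these cells in the values below was not tested beyond the fit given with them, and in sorted bulk samples fewer cells of a type cannot be told apart from less RNA per cell.

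The stretches before the transcription start of 4 subunit genes are printed because these genes carry the results below: Polr2a and Polr2b, the catalytic pair of polymerase II whose RNA ratio is described below, and Polr2m and Polr3k, which with Polr2a had the smallest p-values among the members. Each is the 250 bases before the start in RefSeq on GRCm38.p6, written 5′ to 3′ on the strand of the gene, with a TATA box (TATAAA), GC box (GGGCGG) or CCAAT box (CCAAT) on either strand in capitals. The windows are chr11:69758634-69758883 on the minus strand for Polr2a, chr5:77310234-77310483 on the plus strand for Polr2b, chr9:71485984-71486233 on the minus strand for Polr2m, and chr2:181864110-181864359 on the plus strand for Polr3k. The first window listed for a gene was used, and its RefSeq start can differ from that in GENCODE, which gave the exon lengths. GENCODE starts Polr2b at 77310147, before its window, and Polr2a at 69758637 and Polr3k at 181864337, inside theirs.
Polr2a: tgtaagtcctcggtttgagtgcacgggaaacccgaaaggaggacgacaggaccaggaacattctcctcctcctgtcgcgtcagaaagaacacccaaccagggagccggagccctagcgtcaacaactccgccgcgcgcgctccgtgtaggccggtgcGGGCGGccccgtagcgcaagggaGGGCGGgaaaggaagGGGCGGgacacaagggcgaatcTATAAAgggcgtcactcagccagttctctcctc
Polr2b: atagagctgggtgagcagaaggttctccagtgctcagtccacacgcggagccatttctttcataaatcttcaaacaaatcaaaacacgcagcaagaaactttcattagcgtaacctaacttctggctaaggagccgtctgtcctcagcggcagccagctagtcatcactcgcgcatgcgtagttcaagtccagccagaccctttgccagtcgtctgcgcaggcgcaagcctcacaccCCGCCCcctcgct
Polr2m: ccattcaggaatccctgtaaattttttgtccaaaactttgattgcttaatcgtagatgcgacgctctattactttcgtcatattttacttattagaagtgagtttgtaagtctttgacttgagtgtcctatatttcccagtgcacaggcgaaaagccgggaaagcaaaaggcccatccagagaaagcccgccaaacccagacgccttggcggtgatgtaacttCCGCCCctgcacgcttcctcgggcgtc
Polr3k: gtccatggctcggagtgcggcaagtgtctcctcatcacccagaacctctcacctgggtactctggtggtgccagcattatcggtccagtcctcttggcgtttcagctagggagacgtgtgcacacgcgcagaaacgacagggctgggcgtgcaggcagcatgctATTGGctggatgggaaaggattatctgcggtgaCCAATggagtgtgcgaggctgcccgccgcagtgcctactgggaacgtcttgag
The Polr2a window held a TATA box close to the start and 3 GC boxes, that of Polr2b 1 GC box, that of Polr2m 1 GC box, and that of Polr3k 2 CCAAT boxes.

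RefSeq windows were matched for 26 of the 32 genes. A GC box stood in 14 of these 26 (53.8%), against 32.9% of 27025 windows of the same length, and the ETS motif CCGGAAG in 7 (26.9%), against 7.05%. A TATA box was found in 3 of the 26, those of Polr2a, Polr2c and Polrmt (11.5%, against 13.0% of all windows), and a CCAAT box in 7 (26.9%, against 34.5%). The NRF1 and YY1 motifs were found in 0 of the 26 and in 0.781% and 0.607% of all windows. Each motif was searched on both strands, and the letters of the motifs do not overlap in the 4 printed windows. The median GC content was 59.4% in the members' windows and 52.0% over all windows. These matches describe letters and not binding.

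Per length of exon, the subunit genes of the 3 polymerases differed far more among themselves than between genotypes. In CPM per kilobase of exon, Polr2m was highest, at 82.8 ± 3.17 in Cdk7_KO and 77.5 ± 1.60 in Ctrl (SD, n = 5 each). Polr2m encodes Gdown1, a protein that binds polymerase II and hinders its initiation factors, and is no core subunit. Next came the stalk genes of polymerase II, Polr2d at 45.3 ± 2.24 in Cdk7_KO and 43.3 ± 2.46 in Ctrl, and Polr2g at 39.5 ± 3.27 in Cdk7_KO and 36.8 ± 3.91 in Ctrl. The ranges given by mean and SD of Polr2j, Polr2e, Polr2a, Polr3k, Polr2b and Polr2k overlapped in Ctrl, where their means lay between 23.8 and 28.0 CPM per kilobase. In Cdk7_KO the mean of Polr2a, 33.2 ± 3.91 CPM per kilobase, stood next after Polr2d and Polr2g among the 7 genes of polymerase II alone.

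The largest and second-largest subunits of the other enzymes were at lower levels. Polr1a was at 5.06 ± 0.33 CPM per kilobase in Cdk7_KO and 5.23 ± 0.28 in Ctrl, and Polr1b at 4.60 ± 0.37 in Cdk7_KO and 4.49 ± 0.86 in Ctrl. Polr3a was at 5.40 ± 0.77 CPM per kilobase in Cdk7_KO and 5.43 ± 0.63 in Ctrl, within 1 SD of Polr1a, and Polr3b at 12.3 ± 1.62 in Cdk7_KO and 11.0 ± 1.42 in Ctrl. The lowest member was Polr3g, at 0.64 ± 0.13 CPM per kilobase in Cdk7_KO and 0.56 ± 0.08 in Ctrl. Its paralogue Polr3gl, whose product takes the same place in polymerase III, was at 17.9 ± 2.49 in Cdk7_KO and 16.3 ± 1.89 in Ctrl. Lengths are the union of all annotated exons, so a gene with rare long transcripts, such as Polr1a with 11871 bases, reads low on this scale.

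**Figure D1:**
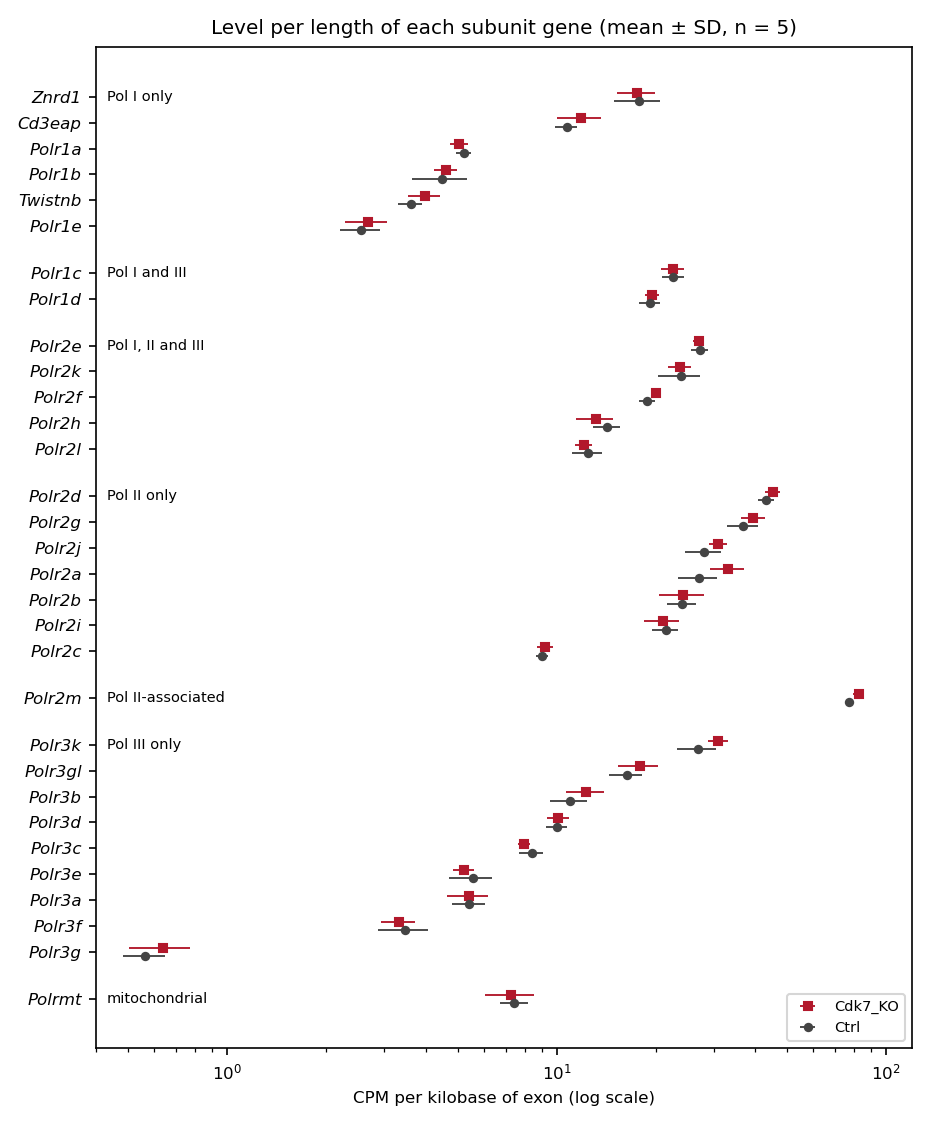
Level of each subunit gene in CPM per kilobase of exon on a log axis, with Cdk7_KO squares drawn above Ctrl circles (mean ± SD, n = 5 each) and genes grouped by enzyme. Polr2m is highest and Polr3g lowest, at 77.5 and 0.56 CPM per kilobase in Ctrl, and the genotypes lie close together for every gene.

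Within genotypes the members were steady from library to library. The median SD of log2 CPM within groups was 0.16 over the members and 0.24 over all genes tested. Polr2m varied least, with an SD of 0.04, and Polr3g most, with 0.25. Polr3g had 47 to 80 counts per library, so counting error weighs on it, whereas Polr2a had 4003 to 7815. Together the 32 genes took 1574 to 1682 CPM in Cdk7_KO and 1450 to 1577 CPM in Ctrl. The lowest Cdk7_KO value (replicate 2) lay just under the highest Ctrl value (replicate 5), so the groups overlapped.

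None of the 32 genes passed edgeR's quasi-likelihood test adjusted over all genes, and neither did any of the 15578 genes tested (0.00%). At an unadjusted p under 0.05, edgeR gave 3 members higher and 0 lower in Cdk7_KO, the 3 being Polr2a, Polr2m and Polr3k. Of all genes tested, 15.4% were at that p, 4.90% higher and 10.5% lower. DESeq2 called 0 members where it called 3.55% of the genes to which it gave an adjusted p. It had 3 members at an unadjusted p under 0.05, against 9.82% of the 28191 genes to which it gave a p. Of the 15578 genes tested in edgeR, 2466 were at that p in DESeq2. Limma's voom called 0 members and 0.00% of genes, with 4 members at an unadjusted p under 0.05 against 15.2% of genes. No member had library ranges that did not overlap, against 0.610% of genes higher and 2.41% lower without overlap.

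By sign, 27 of the 32 log2 fold changes (Cdk7_KO over Ctrl) were above 0, against 52.5% of all genes, and their median was 0.07, against 0.01 for all genes. These are small values beside the scaling: when only library totals were used for scaling, all log2 fold changes shifted by a median of -0.05, and 18 of 32 members and 40.6% of all genes were above 0. When a score averaged over 4 marker lists (astrocytes, microglia, endothelium and the oligodendrocyte lineage; the other-cell index) entered the fit, 20 of 32 were above 0 (50.7% of all genes). That score ran from -1.72 to 0.10 in Cdk7_KO and from 0.32 to 0.98 in Ctrl, without overlap, so it takes up genotype as well.

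**Figure D2:**
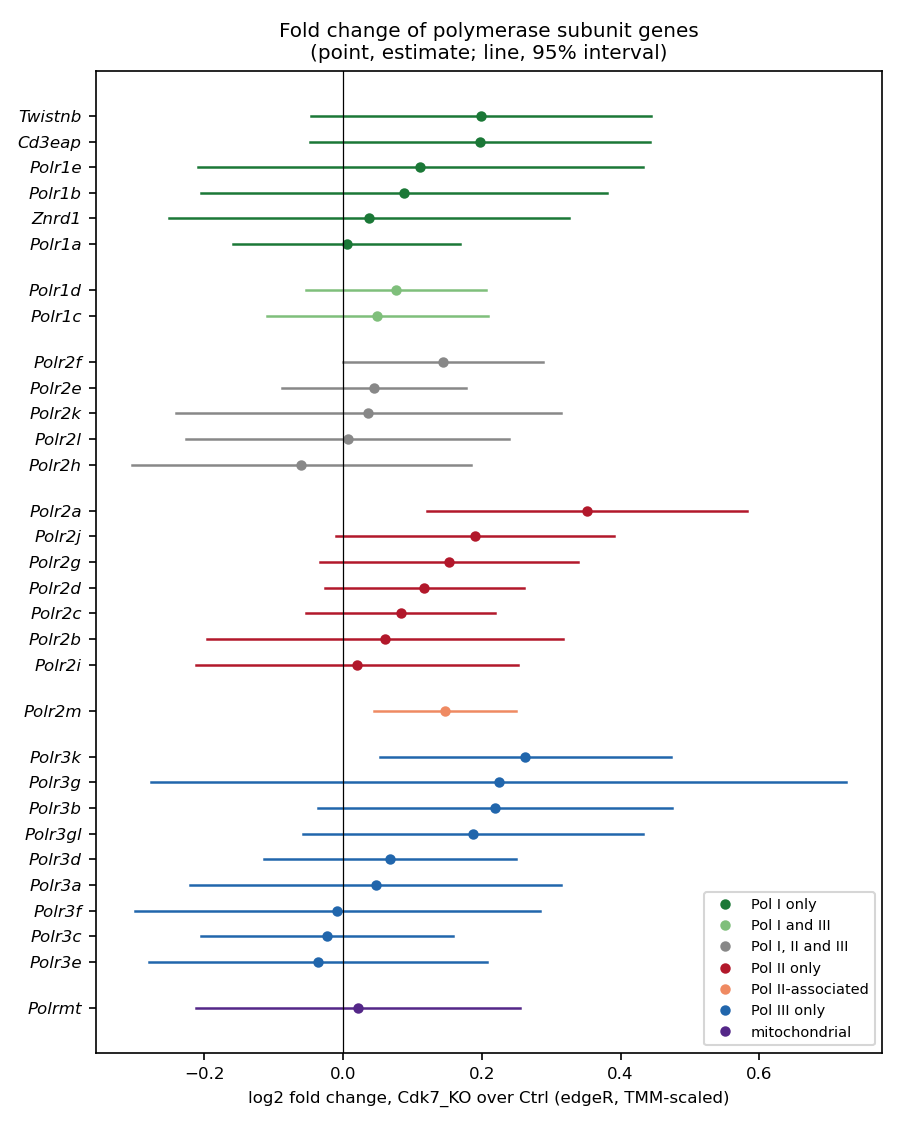
Log2 fold change of each subunit gene, Cdk7_KO over Ctrl, from edgeR with TMM scaling (point, estimate; line, 95% interval), coloured by enzyme. The intervals of Polr2a, Polr2m and Polr3k lie above 0 and those of all others include it; no gene passed the adjustment over all genes.

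Among the genes of polymerase II alone, Polr2a had the largest difference. It lies on chromosome 11 from 69733997 to 69758637 on the minus strand in GRCm38 and encodes the subunit that holds the active site and the heptad repeats. Its level in Cdk7_KO replicates 1 to 5 was 270.7, 204.4, 211.2, 251.5 and 234.5 CPM, and in Ctrl replicates 1, 3, 4, 5 and 6 it was 170.4, 157.9, 205.7, 218.1 and 202.9 CPM. Cdk7_KO replicates 1, 4 and 5 were above every Ctrl library, and Cdk7_KO replicates 2 and 3 lay within the Ctrl range. The means were 234.5 ± 27.6 CPM in Cdk7_KO and 191.0 ± 25.6 CPM in Ctrl (SD, n = 5 each), a log2 fold change of 0.35 (SE 0.11, 95% interval 0.12 to 0.58) with an edgeR adjusted p of 0.179. DESeq2 gave an adjusted p of 0.0541. With sex as a factor in edgeR, Polr2a was higher in Cdk7_KO at an adjusted p of 0.0235 (log2 fold change 0.41), a fit in which edgeR called 732 genes in all. Fitted beside the other-cell index, its log2 fold change was 0.27 (edgeR adjusted p = 0.9999). Over its 21 alternatives the adjusted p ran from 0.0235 to 0.9999 and the log2 fold change from 0.27 to 0.50.

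The second catalytic subunit gene, Polr2b, did not differ beyond its spread. It was at 127.0, 87.6, 101.3, 124.3 and 124.7 CPM in Cdk7_KO replicates 1 to 5, and at 109.3, 98.6, 106.7, 121.0 and 126.9 CPM in Ctrl replicates 1, 3, 4, 5 and 6. The highest and the lowest library were both Cdk7_KO ones. Its log2 fold change came to 0.06 (SE 0.12, 95% interval -0.20 to 0.32, edgeR adjusted p = 0.856). The platform subunit gene Polr2j was at 34.1, 34.5, 37.4, 31.5 and 33.3 CPM in Cdk7_KO replicates 1 to 5, and at 34.7, 33.6, 29.6, 32.1 and 25.1 CPM in Ctrl replicates 1, 3, 4, 5 and 6. Its groups overlapped except for Cdk7_KO replicate 3 above and Ctrl replicates 4 and 6 below. Of the genes of polymerase II alone, the platform subunits Polr2j and Polr2c had log2 fold changes of 0.19 and 0.08, the stalk subunits Polr2g and Polr2d 0.15 and 0.12, and Polr2i, which takes part in transcript cleavage and fidelity, 0.02. All 5 had edgeR adjusted p-values between 0.347 and 0.952. The exons of Polr2i, Polr2c and Polr2j overlap those of Tbcb, Dok4 and Lrwd1 on the opposite strand over 26.8%, 18.1% and 15.9% of their length, and since the libraries were stranded but the strand setting of the counting is not given, their counts may hold reads of these neighbours. The 7 genes summed to 551 ± 43.2 CPM in Cdk7_KO and 498 ± 30.4 CPM in Ctrl. Without Polr2a the sums were 316 ± 16.5 CPM in Cdk7_KO and 307 ± 8.90 CPM in Ctrl (SD, n = 5 each).

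Polr2m showed a small difference with little scatter. It lies on chromosome 9 from 71478437 to 71485935 on the minus strand in GRCm38. Its level was 200.9, 208.1, 208.4, 194.7 and 191.4 CPM in Cdk7_KO replicates 1 to 5, and 184.8, 193.2, 190.2, 183.7 and 187.5 CPM in Ctrl replicates 1, 3, 4, 5 and 6. Cdk7_KO replicate 5 lay below Ctrl replicate 3, and the other 4 Cdk7_KO libraries above all Ctrl libraries. This came to 0.15 as a log2 fold change (SE 0.05, 95% interval 0.045 to 0.25), with an edgeR adjusted p of 0.187. In male libraries alone the log2 fold change was 0.14, and in female ones 0.14. Scaled by library totals it was 0.095 (edgeR adjusted p = 0.374), and beside the other-cell index 0.13 (edgeR adjusted p = 0.9999).

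Of the 5 small subunits that all 3 polymerases share, none passed edgeR's adjusted test or was at an unadjusted p under 0.05. Polr2f, which binds at the foot of the clamp, was at 50.2, 53.6, 51.6, 53.7 and 51.6 CPM in Cdk7_KO replicates 1 to 5, and at 50.9, 49.8, 44.7, 51.1 and 48.3 CPM in Ctrl replicates 1, 3, 4, 5 and 6. Cdk7_KO replicate 1 lay within the Ctrl range and the other 4 just above it. Its log2 fold change was 0.14 (SE 0.07, edgeR adjusted p = 0.327). Polr2e, whose product is part of the jaw of the enzyme, was at 73.3, 72.9, 70.7, 75.8 and 68.5 CPM in Cdk7_KO replicates 1 to 5, and at 73.3, 75.3, 77.7, 69.3 and 67.7 CPM in Ctrl replicates 1, 3, 4, 5 and 6, with every Cdk7_KO library inside the Ctrl range (log2 fold change 0.05). Polr2k, Polr2l and Polr2h were at 0.04, 0.01 and -0.06 on the log2 scale. The median of the 5 was 0.04, and they summed to 179 ± 5.90 CPM in Cdk7_KO and 178 ± 3.36 CPM in Ctrl (SD, n = 5 each). Scaled by library totals alone, 1 of the 5, Polr2f, was above 0.

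**Figure D3:**
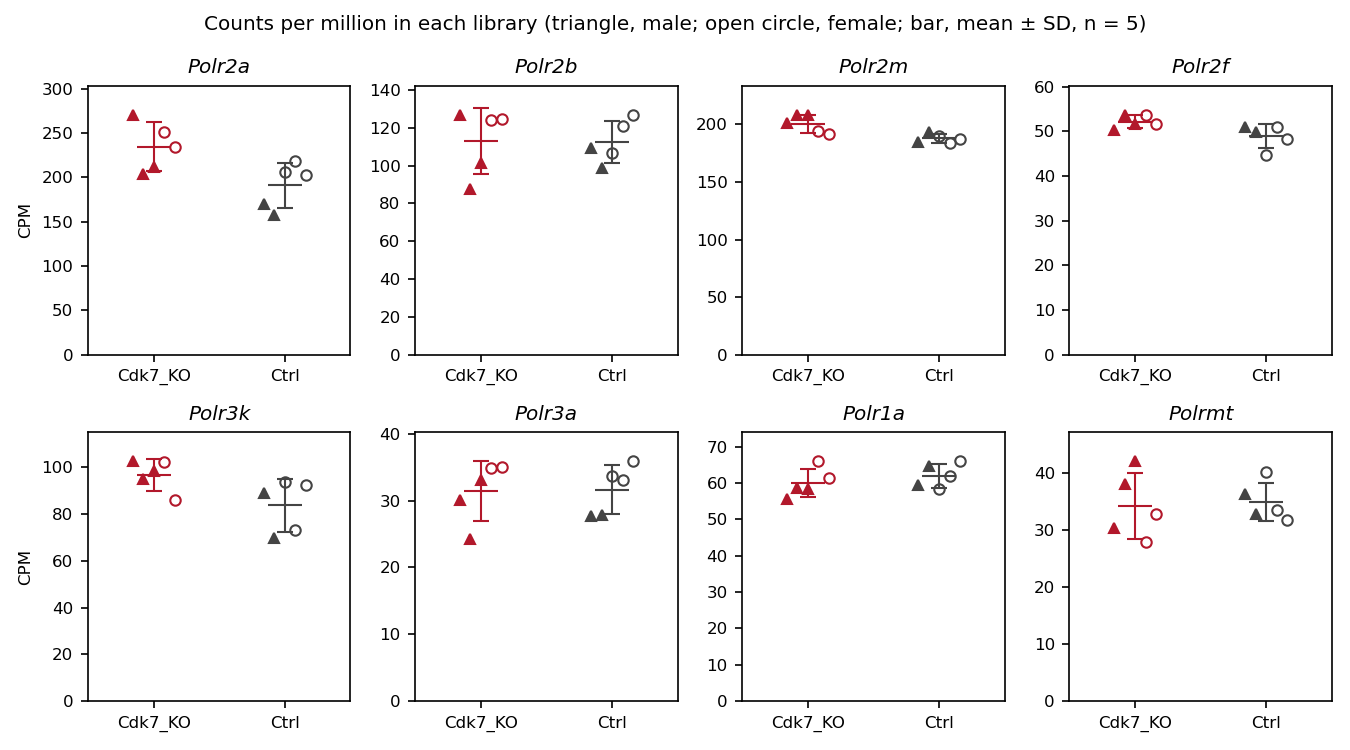
Level of 8 subunit genes in every library in CPM, Cdk7_KO left and Ctrl right, with triangles for male and open circles for female libraries and bars for mean ± SD (n = 5). Polr2a reaches 270.7 CPM in Cdk7_KO and at most 218.1 CPM in Ctrl, while the groups overlap for every gene shown.

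For polymerase I, all 6 specific genes had log2 fold changes above 0, with a median of 0.10 and none at an unadjusted p under 0.05. Beside the other-cell index 3 of the 6 were above 0 (median 0.02), and scaled by library totals 4 (median 0.05). The largest were those of Twistnb, the stalk subunit that contacts the initiation factor RRN3, and Cd3eap, 1 of the pair of subunits that resemble TFIIF. Twistnb was at 21.8, 20.4, 21.4, 22.4 and 16.6 CPM in Cdk7_KO replicates 1 to 5, and at 17.5, 16.6, 18.6, 19.8 and 20.2 CPM in Ctrl replicates 1, 3, 4, 5 and 6. Here 4 Cdk7_KO libraries were above all Ctrl libraries and replicate 5 was below them all, and the log2 fold change was 0.20 (SE 0.11, edgeR adjusted p = 0.425). Cd3eap was at 37.1, 25.7, 26.5, 28.8 and 29.6 CPM in Cdk7_KO replicates 1 to 5, and at 24.1, 25.7, 26.3, 28.8 and 28.8 CPM in Ctrl replicates 1, 3, 4, 5 and 6. Replicate 1 stood out in Cdk7_KO, and the log2 fold change of 0.20 (SE 0.11, edgeR adjusted p = 0.429) was 0.11 without it. Polr1e, the partner of Cd3eap, was at 0.11 on the log2 scale, and Znrd1, which trims transcripts in the active site, at 0.04.

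No difference beyond the spread was found for the catalytic pair of polymerase I. Polr1a was at 55.7, 58.7, 58.5, 66.0 and 61.4 CPM in Cdk7_KO replicates 1 to 5, and at 59.4, 64.7, 58.4, 61.9 and 66.0 CPM in Ctrl replicates 1, 3, 4, 5 and 6. Its log2 fold change was 0.01 (SE 0.08, 95% interval -0.16 to 0.17), and its sign changed under 10 of 21 alternatives. Polr1b was at 25.6, 24.7, 27.0, 26.1 and 30.3 CPM in Cdk7_KO replicates 1 to 5, and at 24.3, 19.3, 24.5, 30.5 and 31.5 CPM in Ctrl replicates 1, 3, 4, 5 and 6. Its Ctrl libraries were more scattered than its Cdk7_KO libraries, and its log2 fold change came to 0.09 (SE 0.13, 95% interval -0.20 to 0.38). The platform subunits Polr1c and Polr1d, which serve polymerases I and III in the places that Polr2c and Polr2j fill in polymerase II, were at 0.05 and 0.08 on the log2 scale. Polr1c was at 57.6, 53.8, 47.9, 48.1 and 49.4 CPM in Cdk7_KO replicates 1 to 5, and at 53.7, 49.9, 55.5, 53.0 and 45.3 CPM in Ctrl replicates 1, 3, 4, 5 and 6. Polr1d was at 56.8, 63.3, 61.9, 57.3 and 57.3 CPM in Cdk7_KO replicates 1 to 5, and at 55.8, 59.0, 64.1, 59.7 and 53.1 CPM in Ctrl replicates 1, 3, 4, 5 and 6. The groups overlapped for both. The 6 specific genes summed to 162 ± 3.20 CPM in Cdk7_KO and 158 ± 10.3 CPM in Ctrl (SD, n = 5 each).

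For polymerase III, 6 of the 10 specific genes were above 0 and 4 below, with a median of 0.06. Polr3k, a small subunit needed for RNA cleavage and termination, had the smallest p. It lies on chromosome 2 from 181864337 to 181870830 on the plus strand in GRCm38, and was at 102.6, 94.8, 98.6, 102.3 and 86.0 CPM in Cdk7_KO replicates 1 to 5, and at 88.9, 70.0, 93.9, 73.4 and 92.5 CPM in Ctrl replicates 1, 3, 4, 5 and 6. Cdk7_KO replicates 1 to 4 were above all Ctrl libraries, replicate 5 was inside the Ctrl range, and Ctrl replicates 3 and 5 were low. Its log2 fold change came to 0.26 (SE 0.10, 95% interval 0.05 to 0.47, edgeR adjusted p = 0.224); fitted beside the other-cell index it was 0.10.

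Polr3b, the second-largest subunit, was at 72.8, 57.7, 56.1, 74.5 and 62.3 CPM in Cdk7_KO replicates 1 to 5, and at 58.7, 49.2, 51.3, 66.9 and 62.5 CPM in Ctrl replicates 1, 3, 4, 5 and 6. Cdk7_KO replicates 1 and 4 were above all Ctrl libraries, and the log2 fold change was 0.22 (SE 0.12, edgeR adjusted p = 0.401). Polr3a, the largest subunit, was at 30.0, 24.3, 33.2, 34.9 and 35.1 CPM in Cdk7_KO replicates 1 to 5, and at 27.7, 27.8, 33.7, 33.1 and 35.9 CPM in Ctrl replicates 1, 3, 4, 5 and 6, which overlapped along nearly their whole range (log2 fold change 0.05, 95% interval -0.22 to 0.31). Of the subcomplex that opens the promoter, Polr3c and Polr3f were at -0.02 and -0.01 on the log2 scale, and of the subcomplex that resembles TFIIF, Polr3d and Polr3e were at 0.07 and -0.04.

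The paralogues Polr3g and Polr3gl are used by alternative forms of polymerase III, of which the Polr3g form is known from stem cells and proliferating cells. Polr3g was at 2.60, 2.58, 2.07, 1.98 and 3.29 CPM in Cdk7_KO replicates 1 to 5, and at 2.72, 2.31, 1.94, 1.98 and 2.15 CPM in Ctrl replicates 1, 3, 4, 5 and 6. Polr3gl was at 23.1, 33.8, 30.0, 29.1 and 26.8 CPM in Cdk7_KO replicates 1 to 5, and at 25.4, 26.3, 30.0, 27.0 and 21.7 CPM in Ctrl replicates 1, 3, 4, 5 and 6. The groups overlapped for both genes, with log2 fold changes of 0.22 (SE 0.23) and 0.19 (SE 0.11).

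Polrmt, the single-subunit polymerase that transcribes the mitochondrial genome, was at 30.2, 38.0, 42.0, 27.8 and 32.8 CPM in Cdk7_KO replicates 1 to 5, and at 36.3, 32.8, 40.1, 33.4 and 31.7 CPM in Ctrl replicates 1, 3, 4, 5 and 6. The Cdk7_KO libraries held both the highest and the lowest value. Its log2 fold change was 0.02 (SE 0.11, 95% interval -0.21 to 0.25).

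**Figure D4:**
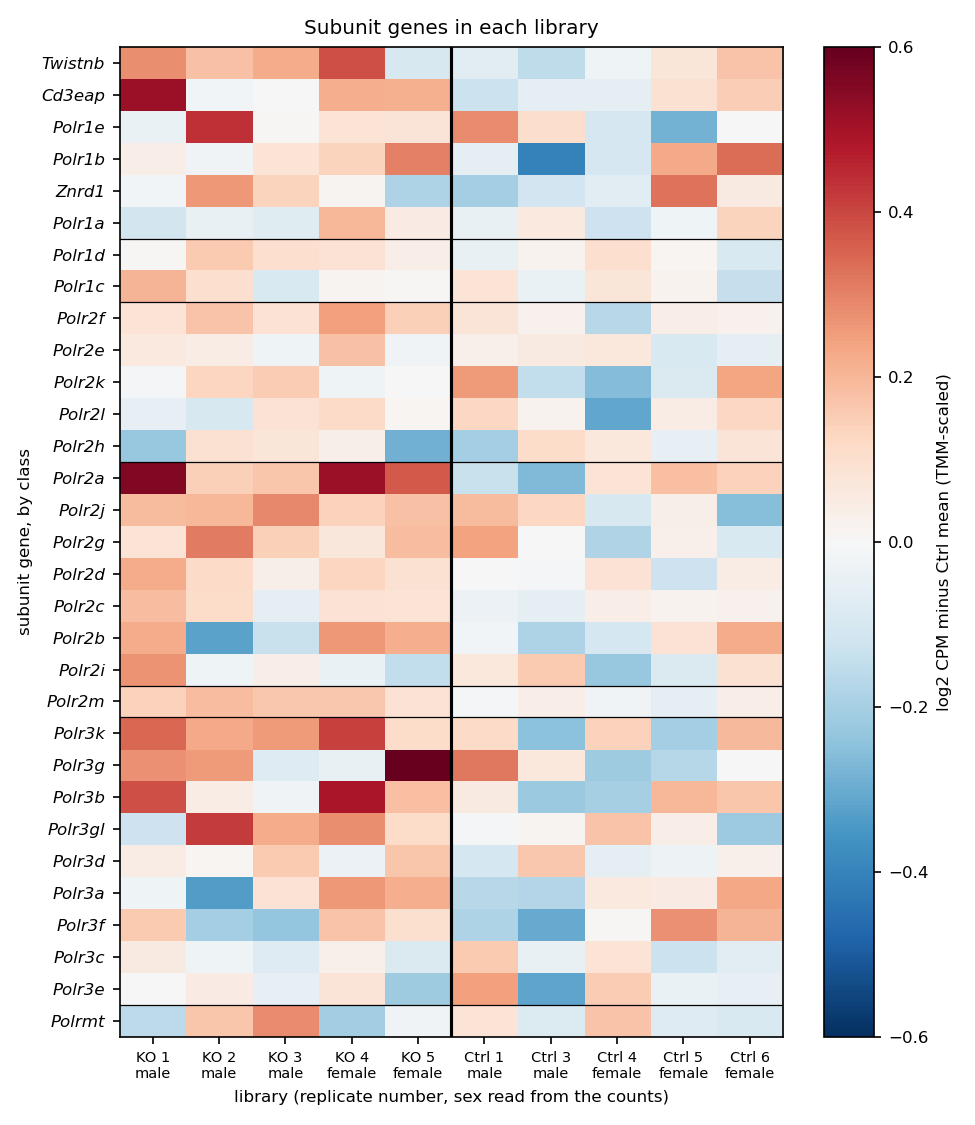
TMM-scaled log2 CPM of the subunit genes in each library minus the Ctrl mean of the gene, with the 5 Cdk7_KO libraries left of the line and the 5 Ctrl libraries right of it, genes grouped by enzyme in the order polymerase I, I and III, all 3, II, associated, III and mitochondrial. Polr2a is at 0.56 and 0.52 in Cdk7_KO replicates 1 and 4, Polr3g reaches 0.62 in Cdk7_KO replicate 5, and Polr2m is above 0 in all 5 Cdk7_KO libraries.

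Set side by side, the median log2 fold change was 0.10 for polymerase I, 0.12 for polymerase II and 0.06 for polymerase III, each beside 0.01 for all genes. Between libraries of 1 genotype the median of the same genes varied with an SD of 0.08, 0.06 and 0.06. That SD describes single libraries and does not measure a difference between enzymes, which was not tested. Male libraries alone gave medians of 0.26, 0.06 and 0.06 for polymerases I, II and III, while female libraries alone gave 0.11, 0.17 and 0.11. The interaction of genotype and sex was below an unadjusted p of 0.05 for 0 of the 32 genes in edgeR, against 7.34% of all genes.

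Ratios of 2 genes within a library do not depend on the scaling, and 4 were tested by exact permutation of the genotype labels (two-sided), with Benjamini-Hochberg adjustment over the 4. Because Polr2a was known to be high when they were chosen and stands in 3 of them, they are not independent of each other, and their p-values restate its difference and are no further support for it. Polr2a had 2.13, 2.33, 2.08, 2.02 and 1.88 counts per count of Polr2b in Cdk7_KO replicates 1 to 5, and 1.56, 1.60, 1.93, 1.80 and 1.60 in Ctrl replicates 1, 3, 4, 5 and 6. In Cdk7_KO 4 of 5 libraries were above all Ctrl libraries, and replicate 5 was below Ctrl replicate 4. On the log2 scale the ratio was 1.06 ± 0.11 in Cdk7_KO and 0.76 ± 0.13 in Ctrl (SD, n = 5 each), a difference of 0.30 (exact permutation p = 0.0159, adjusted 0.0317, 95% interval 0.11 to 0.48). The adjusted p was 0.0529, 0.0635 and 0.0529 without Ctrl replicate 1, 3 or 6. The difference was 0.47 in male and 0.14 in female libraries, where 3 against 2 cannot give an exact p below 0.10, and with labels permuted within sex, a test added after the data were seen, the adjusted permutation p was 0.0400.

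The largest subunits of polymerases I and III, whose own levels are given above with log2 fold changes of 0.01 and 0.05, were set against Polr2a in the same way. The log2 ratio Polr1a/Polr2a was -2.28, -1.80, -1.85, -1.93 and -1.93 in Cdk7_KO replicates 1 to 5, and -1.52, -1.29, -1.82, -1.82 and -1.62 in Ctrl replicates 1, 3, 4, 5 and 6, so that 4 Cdk7_KO libraries were below all Ctrl libraries. The difference was -0.35 (exact permutation p = 0.0238, adjusted 0.0317, 95% interval -0.66 to -0.05), and the adjusted p was between 0.0529 and 0.0741 when any 1 of 7 libraries was left out, namely Cdk7_KO replicates 1, 3, 4 and 5 and Ctrl replicates 1, 3 and 6. The log2 ratio Polr3a/Polr2a was -3.17, -3.07, -2.67, -2.85 and -2.74 in Cdk7_KO replicates 1 to 5, and -2.62, -2.50, -2.61, -2.72 and -2.50 in Ctrl replicates 1, 3, 4, 5 and 6, again with 4 Cdk7_KO libraries below all Ctrl libraries. The difference was -0.31 (exact permutation p = 0.0159, adjusted 0.0317), with an adjusted p of 0.0529 without Ctrl replicate 1, 4 or 6 and 0.0635 without Ctrl replicate 3. With labels permuted within sex the adjusted permutation p was 0.0400 for Polr1a/Polr2a and 0.0533 for Polr3a/Polr2a.

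Between the paralogues no difference was found. The log2 ratio Polr3g/Polr3gl was -3.53 ± 0.41 in Cdk7_KO and -3.56 ± 0.30 in Ctrl (SD, n = 5 each), a difference of 0.03 with a 95% interval of -0.52 to 0.62 (exact permutation p = 0.897, adjusted 0.897). The interval holds the differences that the permutation test did not reject, so changes of that size in either direction remain possible. Polr3g had 47 to 80 counts per library.

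**Figure D5:**
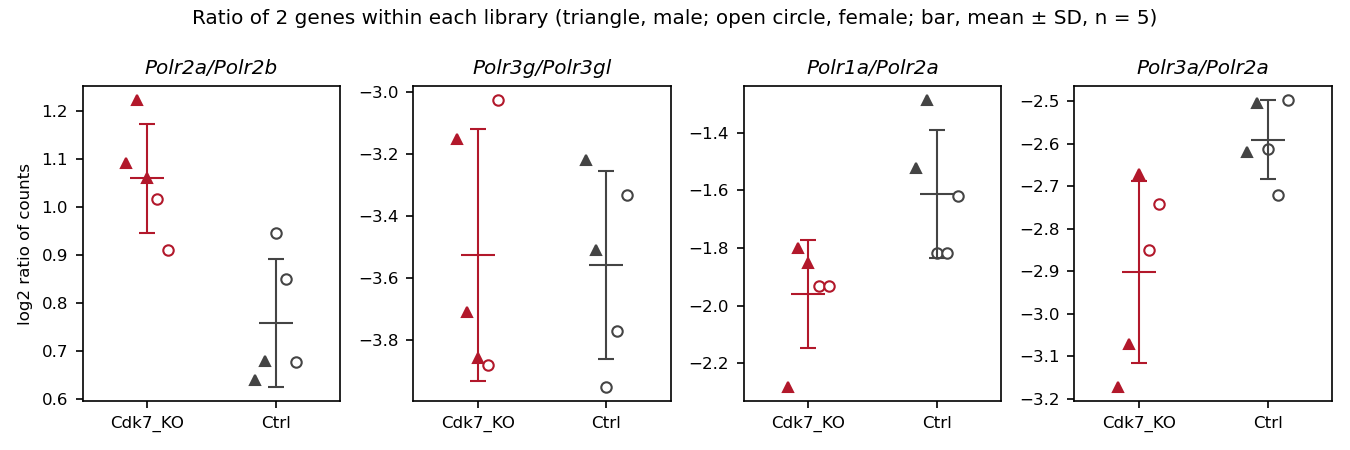
Log2 ratio of the counts of 2 subunit genes within each library, Cdk7_KO left and Ctrl right, with triangles for male and open circles for female libraries and bars for mean ± SD (n = 5). Polr2a/Polr2b is 1.06 in Cdk7_KO and 0.76 in Ctrl on average, while Polr3g/Polr3gl spreads over the same range in both groups.

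Genes that assemble the polymerases or load them onto DNA were taken from 4 lists, all of whose genes were tested. Of 17 polymerase III factors, 14 were above 0 with a median log2 fold change of 0.11, against 52.5% of all genes and a median of 0.01, and 1 was at an unadjusted p under 0.05, against 15.4% of all genes. Beside the other-cell index 8 of the 17 were above 0 (median -0.01), and scaled by library totals 11 (median 0.05). The gene at that p was Gtf3a, the factor for the gene of the shortest ribosomal RNA, at 55.6 ± 3.24 CPM in Cdk7_KO and 51.3 ± 1.95 CPM in Ctrl (log2 fold change 0.17, SE 0.06, edgeR adjusted p = 0.230). Brf1, the subunit of TFIIIB used at transfer RNA genes, was at 0.14 on the log2 scale and Snapc3, of the complex for small nuclear RNA genes, at 0.15.

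Of 12 polymerase I factors, 10 were above 0 (median 0.08), against 52.5% of all genes. Beside the other-cell index the median turned to -0.02 with 5 of 12 above 0, and scaled by library totals it was 0.03 with 8 of 12. The architectural factor Ubtf was at 0.13 on the log2 scale and the promoter factor Taf1b at 0.17. Cavin1 is described as a release factor of polymerase I and as a coat protein of caveolae. It was the only 1 of the 12 at an unadjusted p under 0.05 in edgeR, against 15.4% of all genes. It was at 5.1, 5.6, 11.5, 2.8 and 5.3 CPM in Cdk7_KO replicates 1 to 5, and at 50.1, 18.6, 6.1, 7.9 and 11.3 CPM in Ctrl replicates 1, 3, 4, 5 and 6 (log2 fold change -1.60, edgeR adjusted p = 0.202). With sex as a factor its edgeR adjusted p was 0.0303 (log2 fold change -1.61), and DESeq2 gave 0.140. Ctrl replicate 1 was also the library with the highest sum of endothelial and pericyte markers, 1125 CPM, and without it the log2 fold change was -0.82; the part of these cells in it was not tested.

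Of 17 genes for the assembly of polymerase II or for enzymes acting on its tail, 9 were above 0 (median 0.00024), against 52.5% of all genes. Ctdsp1, which encodes a small phosphatase of the tail known for its part in silencing neuronal genes in other cells, was at 16.8, 8.0, 9.8, 4.5 and 9.3 CPM in Cdk7_KO replicates 1 to 5, and at 26.0, 18.2, 24.7, 20.6 and 18.1 CPM in Ctrl replicates 1, 3, 4, 5 and 6. All Cdk7_KO libraries were below all Ctrl libraries, as for 2.41% of genes. Its log2 fold change was -1.10 (SE 0.26), with an adjusted p of 0.161 in edgeR and 0.00399 in DESeq2, and an edgeR adjusted p of 0.0228 with sex as a factor (log2 fold change -1.21). It thus fell by DESeq2's test and by edgeR's with that factor, and did not pass edgeR's test without it. DESeq2 called 3.30% of genes lower. Fitted beside the other-cell index, its log2 fold change was -0.36. Its relative Ctdspl was likewise without overlap, at 6.82 ± 0.65 CPM in Cdk7_KO and 8.53 ± 0.25 CPM in Ctrl (SD, n = 5 each), with a log2 fold change of -0.27 (edgeR adjusted p = 0.347), and Ctdsp2 was at -0.11.

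Of 11 genes that transcribe or replicate mitochondrial DNA, 8 were above 0 (median 0.14), against 52.5% of all genes. Beside the other-cell index 5 of the 11 were above 0 (median -0.03), and scaled by library totals 7 (median 0.08). Polg, the catalytic subunit of the mitochondrial DNA polymerase, was at 43.7 to 58.3 CPM in Cdk7_KO and 47.7 to 75.5 CPM in Ctrl (log2 fold change -0.30, SE 0.11, edgeR adjusted p = 0.216). It was the only 1 of the 11 at an unadjusted p under 0.05 in edgeR, against 15.4% of all genes. Tfb2m, the initiation factor of the mitochondrial polymerase, was at 0.20 on the log2 scale, and the termination factor gene Mterf1a at 0.47, with 1.70 to 3.46 CPM in Cdk7_KO and 1.02 to 2.40 CPM in Ctrl.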

How the data were processed

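Counts per gene for 10 libraries were deposited by the authors as 1 table of raw counts; the submitters' processing notes name STAR, Salmon and GRCm38, without roles, and the strand setting of the counting is not given in the sources used here. Of 55573 IDs, 55480 matched GENCODE M21, which gave exon lengths and overlaps. Groups followed the labels, with 5 libraries each. The 32 members, the gene lists and the ratios were chosen with earlier results of these data known. Counts were fitted with edgeR 4.0.16 in R 4.3.3 (filterByExpr with a minimum count of 10, TMM factors, quasi-likelihood test, Benjamini-Hochberg adjustment over 15578 genes, threshold 0.05), with DESeq2 1.42.0 and voom of limma 3.58.1 as alternatives, and the script was tested on simulated counts. The p-values of edgeR, DESeq2 and voom set the difference between genotypes against the spread between these libraries. Those of the permutation tests set it against other assignments of the labels. Members are named by symbol; 1 of them enters the counts, medians and sums but is not reported or drawn here by itself. Values in every library are given for the 2 largest subunits of each enzyme, Polrmt, Polr3g, Polr3gl, Polr2m, Polr2f and the 2 genes with the smallest edgeR p in each class, and of each factor list the 3 genes with the smallest p are named. Sex, library totals, an other-cell index, low-count filters, left-out libraries and a replicate block were tried; permutation within sex and the number of positive fold changes were added after seeing the data.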

Additional observations from a re-analysis of the deposited data

Results flagged for a closer look

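In 4 of 72 groups of 5 values, 1 library stood far from the others by Dixon's test at a critical value of 0.71; chance flags about 1 in 20 groups. Polr1e was highest in Cdk7_KO replicate 2, at 13.09 CPM. Polr3e was lowest in Cdk7_KO replicate 5, at 22.83 CPM. The log2 ratio Polr1a/Polr2a was lowest in Cdk7_KO replicate 1, at -2.281, and the difference of that ratio was -0.27 without this library (exact permutation, adjusted p = 0.0741). Polr2l was lowest in Ctrl replicate 4, at 16.87 CPM.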

How the results depend on the processing

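Against 0 genes called by edgeR, 1 was called without the low-count filter, 578 by DESeq2, 5 with the replicate block, 732 with sex as a factor, and 0 to 5 with 1 library left out (5 without Cdk7_KO replicate 1). Against 0 members called, 1 (Polr2a) was called with sex as a factor. Against 3 members at an unadjusted p under 0.05, there were 1 in female libraries alone, 0 with the other-cell index and 2 to 5 with 1 library left out (5 without Ctrl replicate 1). The 15.4% of all genes at that p belongs to the edgeR fit with 3 members. The share in the other fits is not given here, so their counts have no background. The polymerase I median was 0.26 in male libraries alone. The cause of these differences was not tested. Same-numbered libraries had correlations of -0.10, 0.31, 0.14 and 0.17 for numbers 1, 3, 4 and 5, so the numbers were not taken as pairs. Cdk7_KO replicates 1, 3, 4 and 5 correlated best with Ctrl replicates 5, 1, 6 and 6, none with its own number. The ratios Polr2a/Polr2b, Polr1a/Polr2a and Polr3a/Polr2a differed by 0.47, -0.57 and -0.41 in male libraries, by 0.14, -0.18 and -0.19 in female libraries, and by 0.24, -0.39 and -0.24 with the replicate block (exact sign-flip test, where p cannot be below 0.125); none of these passed. Permuted within sex, Polr3a/Polr2a differed by -0.30 (adjusted p = 0.0533). With 1 library left out the differences ran from 0.26 to 0.35 for Polr2a/Polr2b, -0.40 to -0.27 for Polr1a/Polr2a, -0.37 to -0.24 for Polr3a/Polr2a and -0.093 to 0.12 for Polr3g/Polr3gl, which was -0.21 in male libraries. Sign changes are listed for the 18 genes with values in every library, and none of those listed was called. With library totals the log2 fold changes that changed sign were Polr1a -0.049, Polr1c -0.0041, Polr2e -0.0092, Polr3a -0.0075 and Polrmt -0.029. Of the other members, Polr2i -0.029, Polr2k -0.012, Polr2l -0.044 and Znrd1 -0.015 changed sign with library totals too. Their sign changes in other fits are not listed. A mean of at least 1 CPM gave Polr1a -0.016, and voom gave Polr1a -0.0021. The replicate block gave Polr1c -8.479e-06 and Polrmt -0.048, and sex as a factor gave Polrmt -0.0044. Male libraries gave Polr1a -0.092, Polr2e -0.025 and Polr3g -0.041, and female libraries gave Polrmt -0.12. With the other-cell index the log2 fold changes that changed sign were Polr1a -0.16, Polr1b -0.010, Polr2b -0.037, Polr2e -0.046 and Polr3a -0.091. With 1 library left out they ran from -0.060 to 0.040 for Polr1a, -0.0026 to 0.18 for Polr1b, -0.0037 to 0.14 for Polr2b, -0.0012 to 0.063 for Polr2e, -0.020 to 0.13 for Polr3a and -0.054 to 0.068 for Polrmt. Depth limits Polr3g, with 47 to 80 counts per library.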
